A study of Homo sapiens with 6 samples.

Results

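The genes described here are the integrin and laminin families in HepG2, a human liver cancer cell line. Members were chosen by symbol: the integrin alpha genes (ITGA), the integrin beta genes (ITGB) and the laminin alpha, beta and gamma chain genes (LAMA, LAMB, LAMC), with binding proteins and antisense genes left out. The rule gave 36 of the 20026 genes in the deposited table, which were 17 integrin alpha genes, 8 integrin beta genes and 11 laminin genes. *ITGA8* and *LAMA4* were not analysed here. RNA-seq had been done on 6 libraries, 2 of scramble cells (Scr), 2 of miR-23a KO cells and 2 of miR-27a KO cells. Scr cells had received the empty PX458 Cas9 vector. KO cells had received the same vector carrying paired guides on either side of the mature miRNA, miR-23a or miR-27a, and colonies were grown from single sorted cells, so a KO group can carry differences of its colonies as well as of its genotype. The sources used here do not tie a library to a colony, and do not say whether the 2 libraries of a group came from separate cultures. P-values therefore measure the spread between libraries, which may be technical. The miRNA genes themselves were not analysed here, so each group rests on its title. Both miRNAs are cut from a shared transcript, and the levels of either one in each knockout were not analysed here. The labels also call the cells triple-negative, a term that does not belong to HepG2.

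Integrins are receptors made of an alpha and a beta subunit that link the matrix outside the cell to the actin skeleton within it. Laminins are trimers of an alpha, a beta and a gamma chain that form the sheet of the basement membrane, and several integrins bind them. In normal liver, hepatocytes face a matrix with little laminin, and laminins and their receptors are known to be more abundant in bile ducts and in liver cancer.

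The edited miRNAs come from a shared primary transcript on the minus strand of chromosome 19 (GRCh38.p14, mature sequences from RefSeq). They are shown because their seeds, bases 2 to 8 and in capitals, set which members carry a matching site. miR-23a-3p spans chr19:13836595-13836615 and miR-27a-3p spans chr19:13836447-13836467.

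hsa-miR-23a-3p: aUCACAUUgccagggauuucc
hsa-miR-27a-3p: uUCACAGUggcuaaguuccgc

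All 36 members matched an annotated 3'-UTR in GENCODE 29 (GRCh38). A 7-base match to the miR-23a-3p seed (AATGTGA) lay in the longest 3'-UTR of integrin genes that include *ITGA1* and *ITGAL*, and a match to the miR-27a-3p seed (ACTGTGA) in that of 5 members, *ITGA1*, *ITGA2*, *ITGA5*, *ITGAL* and *ITGB8*. Of the 15885 genes with an annotated 3'-UTR, 3070 had a miR-23a-3p match and 2652 a miR-27a-3p match. The windows of *ITGAL*, *ITGA1* and *ITGA2*, the members with a match that had enough counts to be tested, are printed with the match in capitals. The *ITGAL* windows lie at chr16:30522092-30522121, chr16:30523157-30523185 and chr16:30522519-30522548, the *ITGA1* windows at chr5:52957155-52957184 and chr5:52958640-52958669, and the *ITGA2* window at chr5:53093959-53093988, each on the plus strand.

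ITGAL, miR-23a-3p match at 3'-UTR base 438: ggcagaaagcaAATGTGAcctgtgtcacta
ITGAL, miR-23a-3p match at 3'-UTR base 1503: tttatccaataAATGTGAaattctgtcca
ITGAL, miR-27a-3p match at 3'-UTR base 865: tctctcagtgaACTGTGAgggtaaaggcta
ITGA1, miR-23a-3p match at 3'-UTR base 4715: accttgaggaaAATGTGAagtagcatctgg
ITGA1, miR-27a-3p match at 3'-UTR base 6200: tgcgtattactACTGTGAgactgtaaaatt
ITGA2, miR-27a-3p match at 3'-UTR base 3371: tacctattaaaACTGTGAagagtaaaacta

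The authors deposited what the values show to be expected counts, which were rounded. A library held 14891239 or 14405250 counts for Scr, 16515261 or 15930779 for miR-23a KO, and 15850589 or 15947308 for miR-27a KO. Levels of 1 gene across libraries are given as counts per 1000000 counts (CPM), and levels of different genes as FPKM, which is CPM per kilobase of the annotated transcript. In each comparison, edgeR's filter on low counts left 23 or 24 members to be tested. The 12 members that were tested in no comparison had 12 counts or fewer in every library. Among them were *ITGA4*, *ITGA5*, *ITGA9* and *LAMA1*. No fold change is given for them. *ITGB3* was also too low for a test of miR-27a KO against Scr.

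Among the integrins, *ITGB5* had the highest level per length. It encodes the beta subunit that pairs with the alpha subunit of *ITGAV* in a vitronectin receptor. In Scr its level was 66.9 and 62.3 FPKM, in miR-23a KO 65.5 and 60.4 FPKM, and in miR-27a KO 52.8 and 53.1 FPKM, so the miR-27a KO libraries lay below the other 4. *ITGB5* made up between 61.1% and 71.9% of the summed FPKM of the 8 beta genes in every library. *ITGB2*, the beta subunit of leukocyte integrins, came next with 22.1 and 17.8 FPKM in Scr, above *ITGB1* at 11.5 and 6.59 FPKM. Among the alpha genes, the levels were lower. *ITGA6*, a laminin receptor subunit, had 7.70 and 7.99 FPKM in Scr, and *ITGAE*, whose product pairs with that of *ITGB7* and binds E-cadherin, had 7.14 and 7.04 FPKM. The alpha genes summed to 26.4 and 26.4 FPKM in the Scr libraries, and the beta genes to 110 and 93.9 FPKM.

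Laminin transcripts came mainly from 4 genes in all 6 libraries. In Scr, *LAMB2* had 37.3 and 34.7 FPKM, *LAMA5* 30.6 and 18.5 FPKM, *LAMC1* 27.4 and 19.7 FPKM, and *LAMB1* 26.7 and 21.1 FPKM. The levels of *LAMA5*, *LAMC1* and *LAMB1* did not differ beyond the spread of the Scr pair. *LAMA5* made up between 89.0% and 95.7% of the alpha chain FPKM and *LAMC1* at least 99.5% of the gamma chain FPKM. The remaining chains that were tested, *LAMA2*, *LAMA3* and *LAMB3*, had between 0.424 and 1.25 FPKM in Scr. With *ITGB5*, these 4 laminin genes were the 5 members with the highest level per length in Scr.

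**Figure D1:**
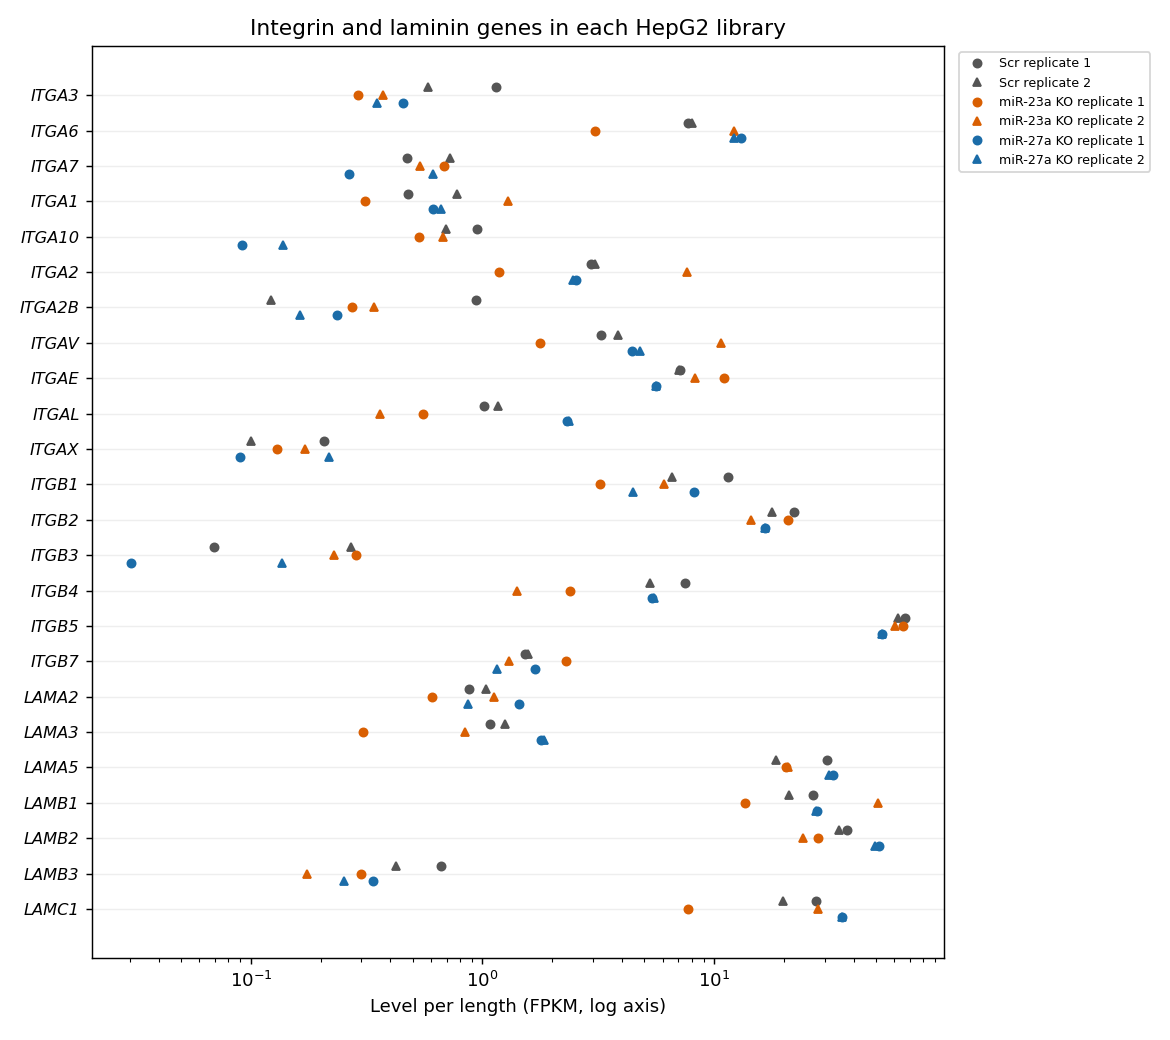
Level of each tested member in each library, in FPKM on a log axis, with circles for replicate 1 and triangles for replicate 2. *ITGB5* lies highest, between 52.8 and 66.9 FPKM, and the 2 miR-27a KO libraries lie close together for most members.

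In miR-27a KO, the laminin receptor subunit *ITGA6* and the leukocyte subunit *ITGAL* rose and the collagen receptor subunit *ITGA10* fell against Scr. *ITGA6* rose 1.60-fold, *ITGAL* rose 2.13-fold and *ITGA10* was 7.10-fold lower. For a call, edgeR had to give an adjusted p below 0.05 with a change of more than 1.5-fold. Called higher were 2 of 23 tested members, beside 3.52% of all 13820 genes tested, and called lower was 1, beside 6.74%. At the study's threshold of 0.001, 0 members were called by edgeR, beside 0.0289% of all genes. Of the 23, 10 had an unadjusted p under 0.05, beside 4447 of all 13820 genes, and DESeq2 called 2 at 0.001 where limma called 0. The median log2 fold change was -0.13 over the 23 members and 0.010 over all genes tested.

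*ITGA6* (gene 3655 in the table, chr2:172427354-172506282) encodes the alpha subunit that pairs with the products of *ITGB1* or *ITGB4* to bind laminin. It had 43.3 and 44.9 CPM in Scr, 17.2 and 68.1 CPM in miR-23a KO, and 73.3 and 68.6 CPM in miR-27a KO. Both libraries of miR-27a KO exceeded both of Scr, while those of miR-23a KO lay on either side. The mean was 44.1 ± 1.14 CPM in Scr and 70.9 ± 3.33 CPM in miR-27a KO (SD, n = 2). The log2 fold change in miR-27a KO was 0.68 (standard error 0.094, edgeR adjusted p = 0.0162). With correction for GC content and transcript length, the change was 0.46 and the call was lost (edgeR adjusted p = 0.0571, in a range of 0.000619 to 0.991 over the alternatives). Neither partner was called. *ITGB4* had 44.2 and 31.4 CPM in Scr and 31.8 and 32.7 CPM in miR-27a KO, and *ITGB1* had 43.6 and 24.9 against 30.8 and 16.9 CPM, so the pairs overlapped for both.

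*ITGAL* (gene 3683, chr16:30472658-30523185) encodes the alpha subunit that pairs with the product of *ITGB2* and binds ICAM proteins on other cells. It had 76 and 90 counts in Scr, 38 and 35 counts in miR-23a KO, and 199 and 204 counts in miR-27a KO. Scaled by depth, this was 5.28 and 6.08 CPM in Scr, 2.88 and 1.88 CPM in miR-23a KO, and 12.1 and 12.3 CPM in miR-27a KO. The groups did not overlap, with miR-27a KO highest and miR-23a KO lowest. Against Scr, miR-27a KO had a log2 fold change of 1.09 (standard error 0.20, edgeR adjusted p = 0.0293). In the fit of all 6 libraries, the change was 1.10 and the call was lost (edgeR adjusted p = 0.521). *ITGB2* had 106 and 85.1 CPM in Scr and 79.6 and 79.5 CPM in miR-27a KO, with a log2 fold change of -0.27 that was not called (edgeR adjusted p = 0.209). Of its ligands, *ICAM1* had a log2 fold change of -0.17, *ICAM2* of 0.60 and *ICAM3* of -0.19, and none of them was called by edgeR.

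Leukocyte markers were read beside *ITGAL*, since its protein is best known from those cells. Of 12 leukocyte markers, 10 were in the table. Their summed level was 581 and 586 CPM in Scr, 295 and 280 CPM in miR-23a KO, and 1637 and 1701 CPM in miR-27a KO, in the same order as *ITGAL*. That order was set by *LYZ*, which encodes lysozyme, the most abundant gene of the list, with 377 and 409, then 127 and 184, then 1496 and 1561 CPM. The markers that define leukocytes were near 0, with 1 or 2 counts of *PTPRC*, 1 to 7 of *CD3E* and 0 to 10 of *CD53* per library, and *CD68* had 162 and 152 CPM in Scr against 107 and 103 CPM in miR-27a KO. Liver markers, 9 of 9 in the table, summed to 29924 and 37139 CPM in Scr, 31487 and 32790 CPM in miR-23a KO, and 25774 and 25706 CPM in miR-27a KO, with *SERPINA1* the most abundant when summed over the 6 libraries, though *ALB* had the higher mean in Scr and in miR-23a KO. The list went both ways in miR-27a KO, where 3 of its genes fell (*ALB*, *AFP* and *FGB*) and *TF*, the gene of transferrin, rose. Albumin had 10422 and 15114 CPM in Scr and 2089 and 2152 CPM in miR-27a KO, and *AFP*, the gene of alpha-fetoprotein, made in fetal liver, had 2589 and 3914 against 185 and 192 CPM. Their log2 fold changes were -2.59 and -4.11 (edgeR adjusted p = 0.00538 and 0.00262). *TF* had 3318 and 2267 CPM in Scr and 6551 and 6750 CPM in miR-27a KO, a log2 fold change of 1.25 (edgeR adjusted p = 0.0212), and of the uncalled genes *APOA1*, *SERPINA1* and *HNF4A* lay above Scr without overlap and *TTR* below it. Platelet markers, 2 of 5 in the table, stayed under 1 CPM in sum, endothelial markers, 4 of 5, summed to between 3.34 and 6.84 CPM, and fibroblast markers, 4 of 8, to between 132 and 216 CPM, with *ACTA2* the most abundant and *COL1A1* at 0 to 2 counts. Of the fibroblast list, *PDGFRB*, a growth factor receptor, fell in miR-27a KO, from 17.4 and 29.3 CPM in Scr to 5.64 and 5.12 CPM (log2 fold change -2.12, edgeR adjusted p = 0.0166), and it had 29.8 and 19.6 CPM in miR-23a KO. The part of these markers in the changes of the members was not tested. In such bulk libraries, fewer cells that express a gene and less RNA per cell cannot be told apart.

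*ITGA10* (gene 8515, chr1:145891208-145910189) encodes a collagen receptor subunit best known from cartilage. It had 72 and 54 counts in Scr, 37 and 66 counts in miR-23a KO, and 8 and 12 counts in miR-27a KO, so its miR-27a KO value rests on few reads. In CPM this was 5.01 and 3.65, then 2.81 and 3.55, then 0.485 and 0.723. The miR-27a KO libraries lay far below the other 4. The log2 fold change was -2.83 (standard error 0.42, edgeR adjusted p = 0.0183). In the fit of all 6 libraries, it was -2.825 and the call was lost (edgeR adjusted p = 0.124). Of the other collagen-binding subunits, *ITGA1* had a log2 fold change of 0.016 and *ITGA2* of -0.28, and neither was called by edgeR.

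The other tested alpha genes were not called in miR-27a KO. *ITGA3*, the other common laminin receptor subunit, had 6.26 and 3.18 CPM in Scr, 1.59 and 2.05 CPM in miR-23a KO, and 2.48 and 1.93 CPM in miR-27a KO, so both KO groups lay below Scr, from counts of 21 to 90 per library. Its log2 fold change in miR-27a KO was -1.10 (standard error 0.43, edgeR adjusted p = 0.153). *ITGA2B*, the platelet subunit, was read from 45 and 6 counts in Scr, and its value there rests on 1 library. *ITGAV*, which binds fibronectin and vitronectin, had 22.9 and 27.2 CPM in Scr and 31.1 and 33.6 CPM in miR-27a KO. *ITGAE* had 27.5 and 27.2 CPM in Scr and 21.7 and 21.7 CPM in miR-27a KO, and *ITGB5* had 293 and 272 against 231 and 232 CPM. These groups did not overlap, and none of the differences passed the threshold. The 5 tested beta genes each had a log2 fold change below 0, between -0.52 in *ITGB1* and -0.13 in *ITGB7*, and 0 were called by edgeR. DESeq2 and limma called none of them either, and 1 had an unadjusted p under 0.05. With GC and length correction and a block for replicate number, edgeR called *ITGB1* lower (-0.82, adjusted p = 0.0146), beside 934 of 13193 genes. Without single libraries, *ITGB1* lay between -1.01 and -0.060.

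Of the 7 tested laminin genes, 6 had a log2 fold change above 0 in miR-27a KO and 1 below it, with a median of 0.37 beside 0.010 over all genes. That median is the value of *LAMA5*, which lay between 0.058 and 0.78 without single libraries. *LAMB1* lay between 0.049 and 0.39 in those fits. *LAMB2*, a beta chain, had 212 and 197 CPM in Scr, 159 and 137 CPM in miR-23a KO, and 291 and 282 CPM in miR-27a KO. It passed the p threshold but not the fold threshold, with a log2 fold change of 0.49 (standard error 0.083, edgeR adjusted p = 0.0256). With correction for GC content and length the change was 0.67, which was called (edgeR adjusted p = 0.00906, in a range of 0.00207 to 0.868 over the alternatives). *LAMC1*, the gamma chain, had 216 and 156 CPM in Scr, 61.0 and 220 CPM in miR-23a KO, and 282 and 280 CPM in miR-27a KO. Its log2 fold change in miR-27a KO was 0.59 (standard error 0.16, edgeR adjusted p = 0.0725), which was not called. DESeq2 called it (adjusted p = 0.00957, in a range of 0.00957 to 0.991 over the alternatives). With a block for replicate number, edgeR called it too (adjusted p = 0.0176). Without single libraries, the value lay between 0.38 and 0.85.

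*LAMA3*, an alpha chain of epithelial laminin, was a low member, with 166 and 198 counts in Scr, 43 and 167 counts in miR-23a KO, and 316 and 327 counts in miR-27a KO. The corresponding levels of 11.5 and 13.4, then 3.26 and 8.99, then 19.2 and 19.7 CPM did not overlap between the groups. The log2 fold change of 0.64 in miR-27a KO was not called (standard error 0.16, edgeR adjusted p = 0.0573). *LAMA5* had 349 and 212 CPM in Scr, 234 and 237 CPM in miR-23a KO, and 372 and 356 CPM in miR-27a KO, and *LAMB1* had 154 and 121, then 78.2 and 295, then 161 and 158 CPM. *LAMB3* was the laminin gene below Scr, with 41 and 27 counts in Scr, 17 and 14 counts in miR-23a KO, and 24 and 18 counts in miR-27a KO. Summed over the 11 laminin genes, the level was 125 and 96.8 FPKM in Scr and 151 and 147 FPKM in miR-27a KO. *LAMB2* made up 57.6% and 61.7% of the beta chain FPKM in Scr and 64.5% and 64.2% in miR-27a KO.

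**Figure D2:**
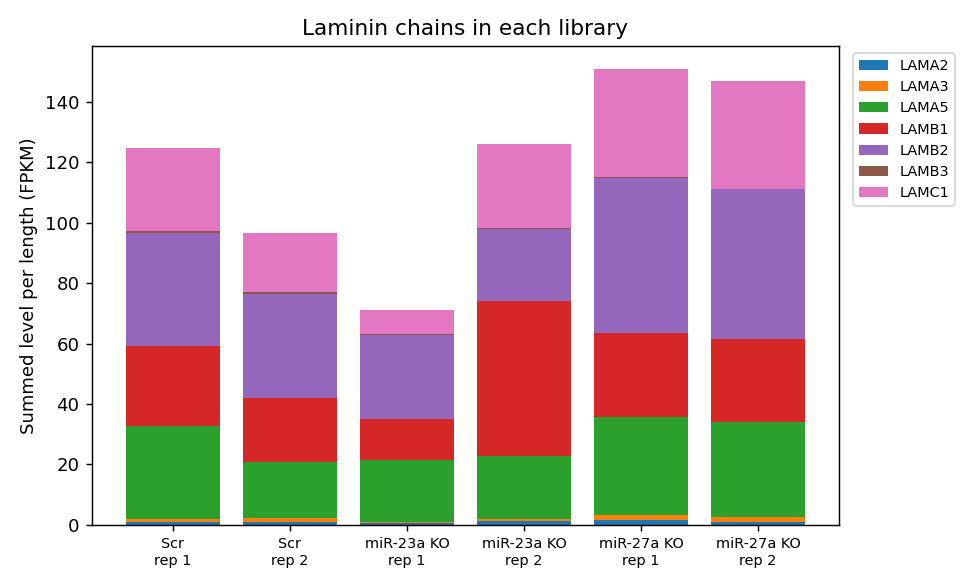
Summed level per length of the 7 tested laminin chains in each library, in FPKM, with 1 colour for each gene. Both miR-27a KO bars are higher than both Scr bars, and the 2 miR-23a KO bars differ most, with *LAMB1* at 13.6 and 51.2 FPKM and *LAMC1* at 7.73 and 27.9 FPKM.

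Counted by libraries that do not overlap, 8 of 23 members lay above Scr in miR-27a KO, beside 32.4% of all genes tested, and 7 lay below, beside 31.9%. The 3 calls in miR-27a KO were lost in the fit of all 6 libraries, which called 0 members higher and 0 lower, beside 3 and 61 of 14163 genes, and without either miR-27a KO library, where edgeR also called 0, beside 111 and 313 of 14302 genes without replicate 1 and 82 and 252 of 14292 without replicate 2. Without replicate 1 of Scr, 4 were called higher and 1 lower, beside 1030 and 1240 of 14208 genes. Without replicate 2 of Scr, 3 were called higher and 4 lower, among them *ITGA3*, beside 1908 and 1808 of 14296 genes.

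**Figure D3:**
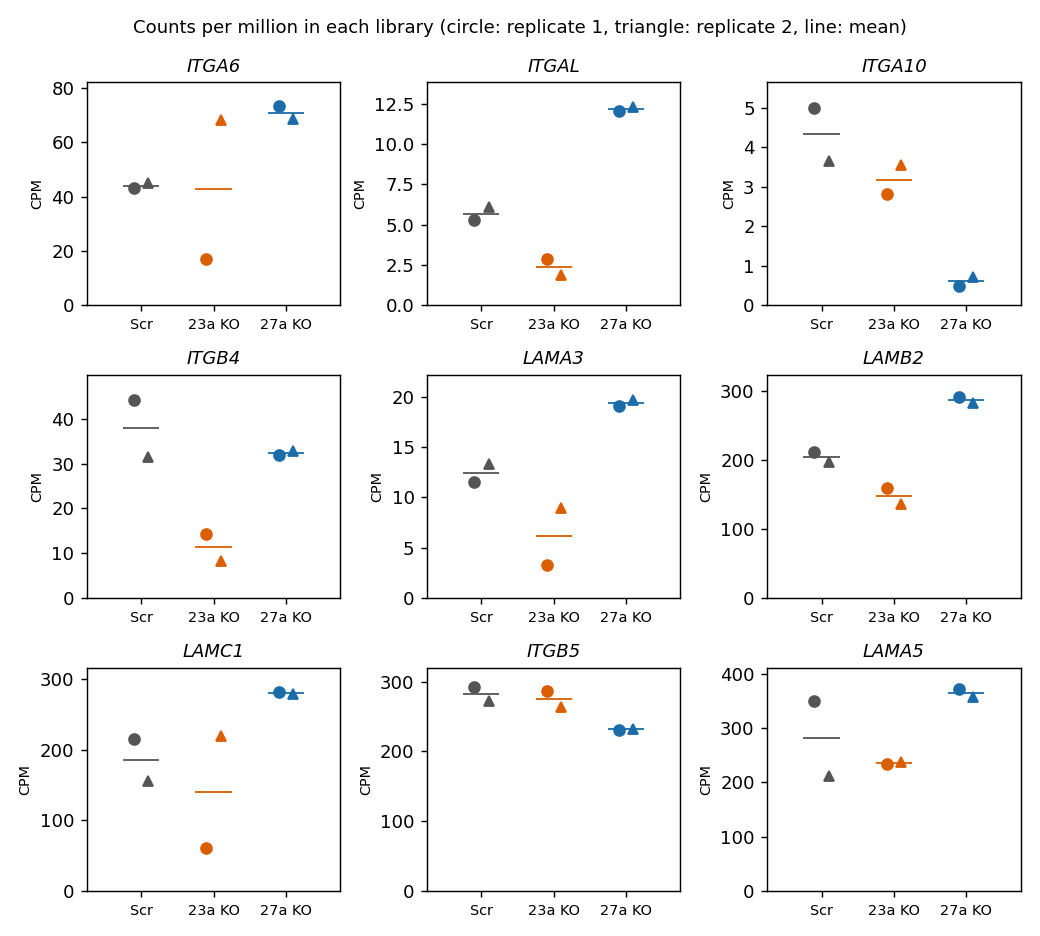
CPM of 9 members in each library, with a line at each mean. *ITGAL*, *LAMA3* and *LAMB2* lie highest in both miR-27a KO libraries and lowest in both miR-23a KO libraries, and *ITGA6* and *LAMC1* split in miR-23a KO.

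Among the proteins that couple integrins to actin, 44 of 51 listed genes in the table were tested in miR-27a KO, 2 rose and 3 fell, beside 3.52% and 6.74% of all genes tested, so both counts were near the background. *FERMT2*, which encodes the integrin activator kindlin-2, rose from 0.904 and 1.35 CPM in Scr to 10.97 and 10.5 CPM, a log2 fold change of 3.24 (standard error 0.30, edgeR adjusted p = 0.00761). It had 12.5 and 13.5 CPM in miR-23a KO, with a log2 fold change of 3.59 that edgeR did not call. *KANK1*, a talin-binding protein, rose by a log2 fold change of 0.89. The falls were in *SRC*, a kinase of adhesion sites (-0.99), *TNS4*, a tensin (-3.81, from 65 and 36 counts to 3 and 5), and *DAB2*, an endocytic adaptor. The fit of all 6 libraries called 1 adaptor higher and 0 lower. *DAB2* had 18 and 57 counts in Scr and 1 and 0 counts in miR-27a KO, which is 85.1-fold lower with a 95% counting interval of 14.8 to 3404. The median log2 fold change over the list was -0.11, and *TLN1*, talin, had 0.32, *ILK* -0.080 and *VCL*, vinculin, -0.074, none of them called.

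Other basement membrane genes also changed in both directions, with 3 of 15 tested rising and 4 falling in miR-27a KO, beside 3.52% and 6.74% of all genes, and a median of -0.16. The fit of all 6 libraries called 0 higher and 1 lower. Nidogen, which bridges laminin and collagen IV, fell: *NID1* had 208 and 136 CPM in Scr, 90.9 and 155 CPM in miR-23a KO, and 7.64 and 6.87 CPM in miR-27a KO, with a log2 fold change of -4.57 (standard error 0.25, edgeR adjusted p = 0.00262). *COL4A2*, a collagen IV chain, had 31 and 31 counts in Scr, 62 and 0 counts in miR-23a KO, and 0 and 0 counts in miR-27a KO. Against a floor of 3 counts per library it was at least 11.7-fold lower in miR-27a KO. *SPARC*, a collagen-binding matrix protein, fell with a log2 fold change of -2.93, and *FBLN1*, fibulin-1, with one of -0.93. The rises were in *FREM1*, from 20 and 21 counts to 225 and 245, in *FRAS1*, its partner in epithelial basement membranes, with a log2 fold change of 0.64, and in *TINAG*, from 3 and 0 counts to 33 and 41, a ratio of 21.8 with a 95% counting interval of 7.16 to 108. *FREM1* had 1 and 6 counts in miR-23a KO. The large heparan sulfate proteoglycans were not called, with *HSPG2*, perlecan, at -0.86 and *AGRN*, agrin, at -0.11. Such intervals and the floor cover counting error only, and setting *DAB2*, *COL4A2* and *TINAG* to their ratio or bound left the list medians at -0.11 and -0.16.

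Of the integrin ligands other than laminins, 24 of 35 in the table were tested in miR-27a KO, 2 rose and 6 fell, beside 3.52% and 6.74% of all genes, with a median of -0.52. The fit of all 6 libraries called 0 and 0. *SPP1*, osteopontin, rose from 473 and 186 CPM to 1267 and 1292 CPM, and *CDH1*, E-cadherin and the ligand of the *ITGAE* product, rose from 64.0 and 88.6 CPM to 137 and 134 CPM. In miR-23a KO, *CDH1* had 21.8 and 11.1 CPM, below both Scr libraries. The 3 largest falls were in the matrix proteins *TNXB* (-2.71) and *COL6A1* (-2.26) and in *FGB* (-2.05), a fibrinogen chain, and *EMILIN1*, *CTGF* and *THBS1* also fell. *FN1*, fibronectin, had 116415 and 80603 counts in Scr and 106239 and 106200 counts in miR-27a KO, with a log2 fold change of -0.081.

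All 16 laminin receptors outside the integrins, with the enzymes that modify dystroglycan, were tested in miR-27a KO, 1 rose and 3 fell, beside 3.52% and 6.74% of all genes, and the median was 0.082. None of these receptors was called in the fit of all 6 libraries. *BCAM*, a receptor of the *LAMA5* chain, rose from 254 and 233 CPM to 401 and 386 CPM (log2 fold change 0.69, standard error 0.087, edgeR adjusted p = 0.0139). *GPC1*, glypican-1, fell with a log2 fold change of -1.345, *SDC1*, syndecan-1, with one of -0.85 and *B4GAT1* with one of -0.62. *DAG1*, dystroglycan, had 0.21 and was not called. In miR-23a KO against Scr, edgeR called 0 genes of the 4 lists, with 2 adaptors, 1 basement membrane gene, 3 ligands and 1 receptor at an unadjusted p under 0.05, beside 332 of 13786 genes. DESeq2 called 1 adaptor higher and 1 ligand lower there, beside 4 and 59 genes, and limma called 0. Between the knockouts edgeR called 0 as well, with 3 adaptors, 5 basement membrane genes, 8 ligands and 2 receptors at an unadjusted p under 0.05, beside 1207 of 13841 genes. There limma called 0, and DESeq2 called 5 genes higher and 5 lower over the 4 lists, beside 259 and 218 of all genes.

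In miR-23a KO, *ITGB4*, the beta subunit that anchors epithelial cells to laminin through hemidesmosomes, had the lowest unadjusted p of the members against Scr. It had 636 and 465 counts in Scr, 187 and 155 counts in miR-23a KO, and 525 and 543 counts in miR-27a KO. In CPM this was 44.2 and 31.4, then 14.2 and 8.35, then 31.8 and 32.7. Both miR-23a KO libraries lay below the other 4. The log2 fold change was -1.70 (standard error 0.52, edgeR unadjusted p = 0.0112, adjusted p = 1.00), so it was not called. Of all 24 tested members edgeR called 0, as it did over all 13786 genes (0%). The 1 member at an unadjusted p under 0.05 was *ITGB4*, and DESeq2 and limma called 0 members.

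Other members with both miR-23a KO libraries on 1 side of Scr were counted in the same way. Below Scr were 8 of 24, beside 15% of all genes, and above it was 1, *ITGAE*, beside 8.84%. The 8 were *ITGA3*, *ITGA10*, *ITGAL*, *ITGB1*, *ITGB4*, *LAMA3*, *LAMB2* and *LAMB3*. *ITGAL* had a log2 fold change of -1.20, *ITGA3* of -1.29, *LAMB3* of -1.14, *LAMA3* of -0.92 and *ITGB1* of -0.87. Leaving out replicate 2 of miR-23a KO moved *LAMA3* to -1.93 and *ITGB1* to -1.48, both called by edgeR (adjusted p = 0.0191 and 0.0239), and leaving out replicate 1 moved them to -0.43 and -0.54. The standard errors of the values with all libraries lay between 0.57 and 0.76, against 0.16 to 0.43 for the same genes in miR-27a KO. *ITGB1*, the partner of most alpha subunits, had 12.2 and 22.9 CPM, and *ITGAE* had 42.4 and 31.9 CPM. The median log2 fold change was -0.089 over the members and 0.16 over all genes tested.

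**Figure D4:**
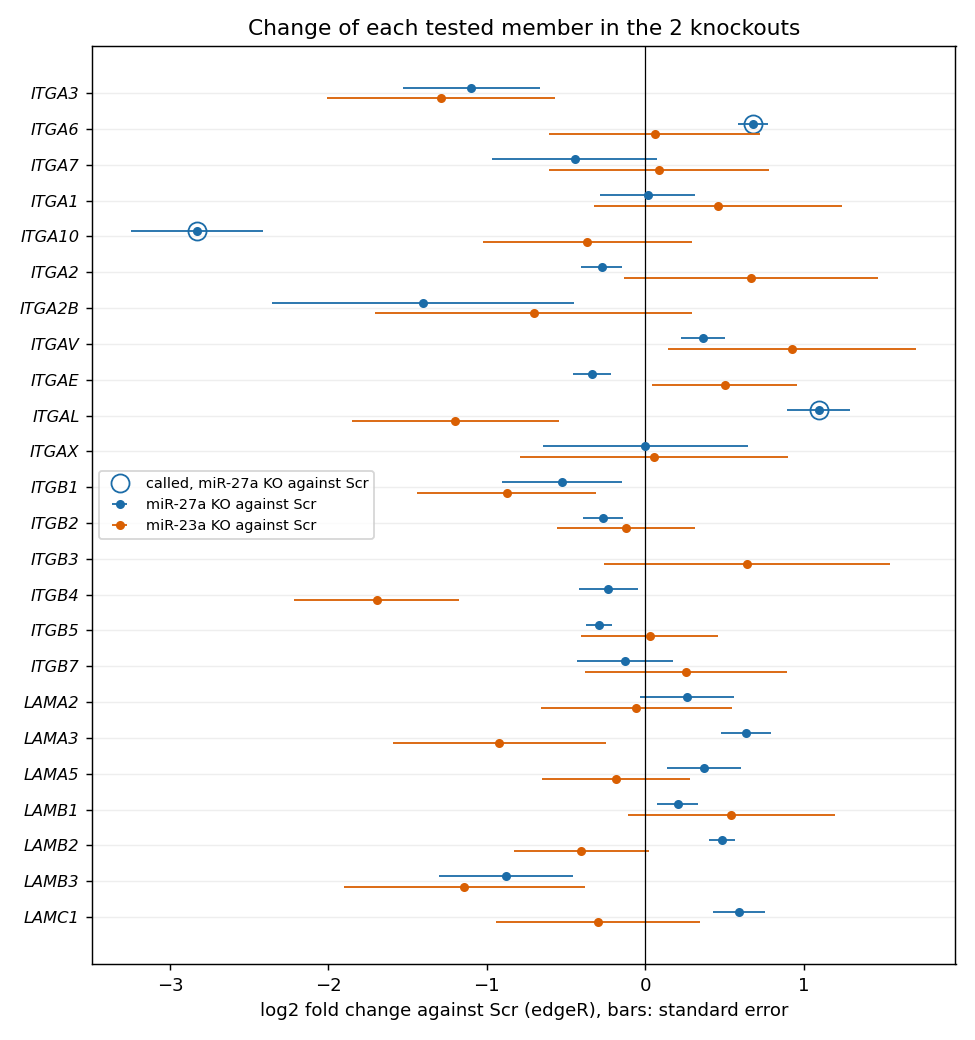
Log2 fold change against Scr of each tested member in edgeR, with bars of 1 standard error, and circles around the 3 called members. The bars of miR-23a KO are the wider, and 11 members have opposite signs in the 2 knockouts, of which *ITGAL*, *LAMA3*, *LAMB2* and *ITGAE* had libraries that did not overlap with Scr in either. Both comparisons share the Scr libraries.

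The 2 miR-23a KO libraries disagreed on several integrin and laminin genes. *ITGA2* had 9.26 and 60.1 CPM, *ITGAV* 12.4 and 75.4 CPM, and *ITGA1* 3.34 and 13.9 CPM. *LAMB1* and *LAMC1* likewise differed more than 3-fold between them. For these genes and *ITGA6*, replicate 1 lay below both Scr libraries and replicate 2 above them, so no direction can be given. In all, 7 of 23 members tested in every comparison were over 2-fold apart in miR-23a KO, against 1 in Scr and 2 in miR-27a KO. Of all 13411 such genes, 46.7% were over 2-fold apart in miR-23a KO, 7.02% in Scr and 2.16% in miR-27a KO. Across the 23 members, the log2 ratio of the miR-23a KO libraries had a Pearson correlation of -0.84 with the GC content of the transcript, and -0.65 across the 12851 genes with a value. The points share both libraries and are not independent. Members with a GC content up to 51% included each of the 7, while *ITGB4*, *ITGAL*, *ITGAE* and *ITGB5*, with 54% or more, were less than 2-fold apart. The correlation was -0.40 in Scr and 0.15 in miR-27a KO. Its part in the values above was not tested beyond the corrected fits. Without replicate 1 of miR-23a KO, edgeR called 3 members higher (*ITGA2*, *ITGAV* and *LAMB1*) and 1 lower (*ITGB4*), beside 338 and 256 of 14417 genes. Without replicate 2 it called 0 higher and 7 lower, beside 1697 and 933 of 14136 genes, with *ITGA2* and *LAMB1* now among those lower and 10 members at an unadjusted p under 0.05.

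**Figure D5:**
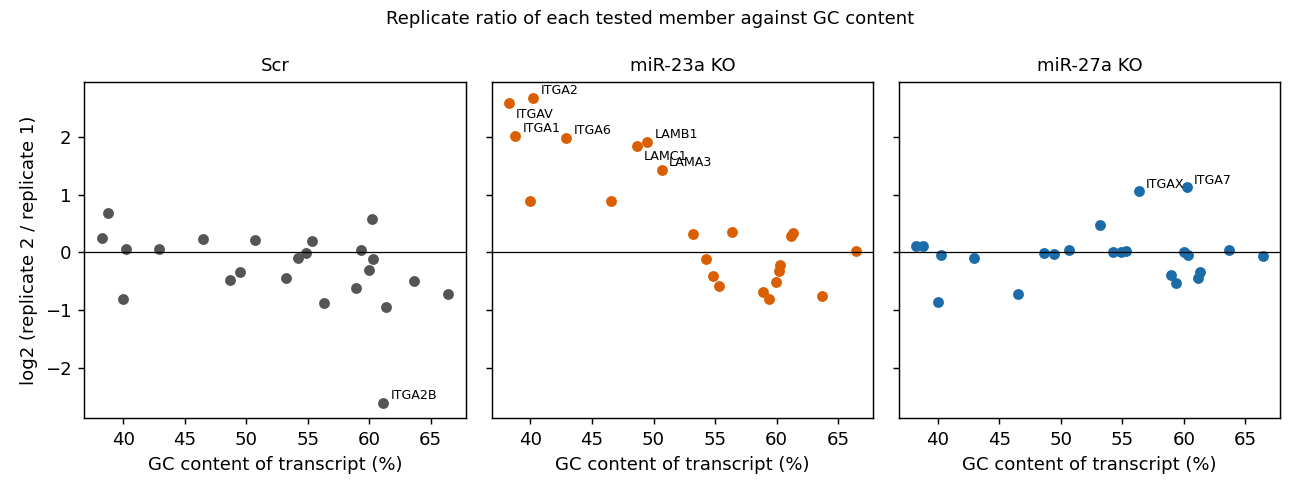
Log2 ratio of replicate 2 to replicate 1 for each tested member against the GC content of its transcript in percent, by group, with names where the libraries were over 2-fold apart. In miR-23a KO the ratio falls with GC content (Pearson correlation -0.84), and in miR-27a KO most points lie near 0.

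Between the knockouts, *ITGA10* and *ITGAL* had the largest log2 fold changes of the members. In miR-23a KO against miR-27a KO, *ITGAL* had a log2 fold change of -2.35 (standard error 0.44, edgeR adjusted p = 0.170) and *ITGA10* of 2.39 (standard error 0.55, edgeR adjusted p = 0.252). *ITGB4* had -1.51, *LAMA3* -1.65, *LAMB2* -0.95 and *ITGAE* 0.78, and none of them was called. Without single libraries, the value of *LAMA3* lay between -2.56 and -1.12. Of the 24 members tested, edgeR called 0, as it did over all 13841 genes (0%), with 5 members at an unadjusted p under 0.05, beside 1207 genes. DESeq2 called 0 members higher and 1 lower, *ITGAL*, beside 259 and 218 genes, and limma called 0, beside 17 and 44 genes. Libraries that did not overlap put 7 members lower in miR-23a KO, beside 20.8% of all genes, and 5 higher, beside 18.7%. The 7 were *ITGA6*, *ITGAL*, *ITGB4*, *LAMA3*, *LAMA5*, *LAMB2* and *LAMC1*, and the 5 were *ITGA2B*, *ITGA10*, *ITGAE*, *ITGB3* and *ITGB5*. *ITGB3* encodes the beta subunit of the platelet fibrinogen receptor. It was read from 15 and 17 counts in miR-23a KO and 2 and 9 counts in miR-27a KO. In Scr it had 4 and 16 counts, and the Scr libraries overlapped those of both knockouts. *ITGA2B*, its partner, was read from 12 and 21 counts in miR-23a KO and 13 and 9 counts in miR-27a KO. Without replicate 1 of miR-23a KO, 5 members were called higher and 5 lower, beside 2772 and 2135 of 14361 genes. Without its replicate 2, 2 were called higher and 13 lower, beside 3584 and 3719 of 14207 genes.

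Of the 5 with a miR-27a-3p match, the 3 tested in miR-27a KO were *ITGAL*, with a log2 fold change of 1.09, *ITGA1*, with 0.016, and *ITGA2*, with -0.28. Their median of 0.016 stood beside 0.074 over the 2109 tested genes with a match and -0.0062 over the 10162 without one. In the same comparison, genes with a miR-23a-3p match had a median of 0.14 and genes without one of -0.023. In miR-23a KO, *ITGAL* and *ITGA1*, the 2 tested members with a miR-23a-3p match, had log2 fold changes of -1.20 and 0.46, beside a median of 0.23 over 2429 tested genes with a match and 0.15 over 9833 without one. There, genes with a miR-27a-3p match had a median of 0.18 and genes without one of 0.17. *ITGAL* carries matches to both seeds, as printed above, and was above Scr in one knockout and below it in the other. A match is a description of the sequence and was not tested as a site. *ITGA5*, the fibronectin receptor subunit, also has a miR-27a-3p match, and had 7 and 4 counts in Scr and 6 and 10 counts in miR-27a KO.

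Some members share their locus with other genes of the table, and whether the counting used strand is not given in the sources used here. Reads of a gene and of its antisense partner may therefore not be told apart. *ITGA6-AS1* had 4 and 11 counts in Scr, 53 and 113 counts in miR-23a KO, and 39 and 132 counts in miR-27a KO, against at least 226 counts of *ITGA6* in each library. *LAMC1-AS1* had 0 and 87 counts in Scr, 0 and 165 counts in miR-23a KO, and 569 and 303 counts in miR-27a KO, where *LAMC1* had 4646 and 4649. *ITGB2-AS1* had 32 and 21, then 30 and 50, then 11 and 9 counts. edgeR called none of these 3 antisense genes. *ITGB4* overlaps *GALK1* on the other strand, which had 1174 and 1025 counts in Scr and 2507 and 847 counts in miR-23a KO, and *LAMA5* overlaps *ADRM1*. For *ITGAL* and *ITGA10*, no gene of the table overlaps the locus in GENCODE 29.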

How the data were processed

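Per the labels, total RNA of 6 HepG2 libraries was prepared with an Illumina TruSeq RNA kit, where the study's methods name a stranded mRNA kit and paired reads. The authors deposited expected counts per gene under column names that say FPKM. They were read so since column totals differ, many values are whole and the smallest above 0 are near 1 in long and short genes. The submitters' notes list HISAT, StringTie, Cufflinks and GATK without role or version, and the genome build is not given in the sources used here. Value columns not used numbered 0.

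Values were rounded and tested with edgeR 4.0.16 in R 4.3.3 (filterByExpr, TMM, glmQLFit, glmQLFTest) for each pair of groups, with Benjamini-Hochberg adjustment over all genes tested. Calls on members and lists needed an adjusted p below 0.05 and more than 1.5-fold change. CPM and FPKM used TMM factors over all 6 libraries and GENCODE 29 lengths, which matched 17917 of 20026 genes. Log2 CPM used a prior count of 2. Tables and figures used pandas 2.3.3 and matplotlib 3.10.9. The workflow was tested on simulated data. Members with values in every library are those called, those over 1.5-fold without overlap, and the 5 highest per length in Scr. For the 4 gene lists, counts, medians and up to 3 called genes in each direction are given, and other genes named were chosen after their values were seen. Not every member's result is reported here. Members and lists were chosen with earlier results of these data known. The settings varied were DESeq2 1.42.0, its median-ratio scaling within edgeR, all genes unfiltered, a joint fit of the 6 libraries, a block for replicate number, loess correction for GC content and length (span 0.5, degree 2), that correction with the block, limma 3.58.1 on log2 of FPKM plus 0.1, and the omission of each library, where a lone library is assumed to vary like the other group.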

Additional observations from a re-analysis of the deposited data

Results flagged for a closer look

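Both libraries of each KO group lay on opposite sides of both Scr libraries for 4 of the 23 members tested in every comparison, which was the case for 5.85% of 13411 genes. The difference between the knockouts was tested directly in edgeR. The log2 fold change of miR-23a KO over miR-27a KO was -2.35 for *ITGAL* (adjusted p = 0.170), -1.65 for *LAMA3* (adjusted p = 0.514), -0.95 for *LAMB2* (adjusted p = 0.510) and 0.78 for *ITGAE* (adjusted p = 0.634). *ITGAL*, *LAMA3* and *LAMB2* were the ones higher in miR-27a KO, and *ITGAE* was higher in miR-23a KO. None of the 4 passed the threshold. Groups of 2 libraries are too small for a test of single libraries.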

How the results depend on the processing

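None of the 3 members called in miR-27a KO against Scr was called under every alternative. In miR-27a KO against Scr, 2 members were called higher and 1 lower, beside 487 and 931 of 13820 genes. The fit of all 6 libraries called 0 and 0, beside 3 and 61 of 14163. DESeq2 called 3 and 1, beside 564 and 1058 of 13820. GC and length correction with the replicate block called 2 and 2, beside 559 and 934 of 13193. *ITGA6* was called in 5 of 8 alternatives, *ITGAL* in 7 and *ITGA10* in 7. In miR-23a KO against miR-27a KO, where 0 were called, DESeq2 called 1 lower, beside 259 genes higher and 218 lower of 13841. GC and length correction with the replicate block called 1 higher and 3 lower there, beside 426 and 339 of 13190. The cause was not tested.

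Whether the replicate numbers pair the libraries is not given in the sources used here. Deviations from the group mean were compared between libraries of the same number over 14164 genes. Their correlation was 0.15 between Scr and miR-23a KO, 0.0128 between Scr and miR-27a KO and 0.015 between the knockouts. These values cannot settle a pairing, since libraries can also deviate alike for other reasons. The replicate block called 3 members higher and 1 lower in miR-27a KO, beside 624 and 1069 of 13820 genes. It called 0 members in miR-23a KO, beside 7 and 62 of 13786 genes, and 0 between the knockouts, beside 211 and 189 of 13841.

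Leaving out each library in turn gave 0 to 4 members called higher and 0 to 4 lower in miR-27a KO (82 to 1908 and 252 to 1808 of all genes), 0 to 3 higher and 0 to 7 lower in miR-23a KO, and 0 to 5 higher and 0 to 13 lower between the knockouts. Of the 180, 192 and 192 log2 fold changes of named members under an alternative in these 3 comparisons, 2, 19 and 5 changed sign. *ITGA6* in miR-23a KO, 0.060 in the report, was -0.0069 with median-ratio scaling, -0.0072 with DESeq2, -0.045 with all 6 libraries, -0.29 with the replicate block, -0.24 with GC and length correction, -0.25 with both and -0.29 with limma. *ITGB5* there was -0.036 with all 6 libraries, and *LAMA5* 0.050 and 0.063 with GC and length correction, without and with the block. Between the knockouts *LAMB1* was -0.061 with the replicate block and -0.066 with limma. Without single libraries, the values in miR-27a KO lay between -2.22 and 0.70 for *ITGA2B* and -0.45 and 0.040 for *ITGB4*. In miR-23a KO they lay between -1.36 and 0.67 for *ITGA6*, -1.53 and 1.35 for *ITGA2B*, -0.047 and 1.92 for *ITGB3*, -0.053 and 0.046 for *ITGB5*, -0.50 and 0.18 for *LAMA5*, -0.81 and 1.14 for *LAMB1*, and -1.60 and 0.29 for *LAMC1*. Between the knockouts they lay between -0.96 and 0.048 for *ITGB1*, -1.02 and 0.88 for *LAMB1*, and -0.75 and 0.032 for *LAMB3*.

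Of the other lists in miR-27a KO, the fit of all 6 libraries called 1 adaptor higher and 0 lower, 0 and 1 basement membrane genes, 0 and 0 ligands and 0 and 0 receptors, against 2 and 3, 3 and 4, 2 and 6, and 1 and 3 in the report. Over all genes that fit called 3 higher and 61 lower of 14163, against 487 and 931 of 13820. Depth limits the members with 12 counts or fewer in every library, which the filter of the report left out. Without a filter, edgeR called 2 members higher and 1 lower in miR-27a KO, beside 304 and 588 of 19324 genes. It called 0 in miR-23a KO, beside 0 and 10 of 19391 genes, and 0 between the knockouts, beside 0 of 19406. In these last 2 comparisons, 1 and 6 members had an unadjusted p under 0.05.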
